A study of Mus musculus with 15 samples.

Results

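Leukocyte receptors that carry an immunoreceptor tyrosine-based inhibitory motif (ITIM) restrain activation, and this account covers 9 genes of that system in sorted group 2 innate lymphoid cells (ILC2) and their bone marrow precursors (ILC2p). The genes were the receptors Pecam1, Cd72, Lilrb4, Lair1, Cd300a, Cd200r1 and Pirb and the phosphatases Ptpn6 and Inpp5d, found by symbol as 9 of the 24690 entries in each expression table. They had been selected on the read counts and RPKM values of these same libraries, so their differences between genotypes and cell types are given as a description with a standard error (SE) and without a p-value.

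The study asked how loss of the TGF-β receptor II gene, Tgfbr2, changes the transcriptome of ILC2 and ILC2p, and sequenced RNA from 15 libraries of C57BL/6 mice. Every mouse or marrow donor from which the sequenced cells derived, the controls included, was Tgfbr2f/f ER-cre+. Such mice are homozygous for a floxed Tgfbr2 allele and carry a tamoxifen-inducible Cre. At 8 to 12 weeks of age these mice received tamoxifen (called Tgfbr2-/-) or sunflower oil (called WT) on 5 consecutive days, so that tamoxifen itself and loss of the receptor cannot be told apart. ILC2 came from the lamina propria of the gut of treated mice (4 WT and 3 Tgfbr2-/- libraries). ILC2p were donor-derived cells from the marrow of irradiated chimeras (4 WT and 4 Tgfbr2-/- libraries). The chimeras had received treated donor marrow mixed with normal marrow 6 weeks before. Their hosts and the normal marrow came from normal mice with another CD45 allele. Each cell type was collected in 2 experiments of its own, and the sample titles carry a different prefix for each of these 4, so that experiment 1 of ILC2 is not experiment 1 of ILC2p. Tissue, host and experiment differed together with cell type and cannot be told apart from it, and nothing in the labels says that libraries of one group came from separate animals, so that the spread between them may be technical. Total counts per library ran from 12997489 to 22350339 in WT ILC2, from 12167066 to 32114265 in Tgfbr2-/- ILC2, from 12276824 to 35961215 in WT ILC2p and from 10957021 to 31993992 in Tgfbr2-/- ILC2p.

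When an ITIM receptor meets its ligand, a Src family kinase phosphorylates the tyrosine of the motif, and the phosphorylated motif recruits a phosphatase with SH2 domains, such as SHP-1 (encoded by Ptpn6) or SHIP-1 (encoded by Inpp5d). The phosphatase then removes phosphates from kinases and adaptors, or from membrane phosphoinositides, and so dampens signals from activating receptors that use adaptors such as FcRγ and DAP12. ILC2 receive their main activating signals through cytokine receptors, and several inhibitory receptors, KLRG1 and PD-1 among them, are used to recognise or restrain the mature cells.

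The motif reads, in amino acids, isoleucine, valine, leucine or serine, any residue, tyrosine, any 2 residues, and then leucine, valine or isoleucine, and its 18 coding bases are given here for the 3 receptors with which the results begin and for Gp49a, the neighbouring gene that resembles Lilrb4. They were read from the GENCODE vM1 transcripts of the NCBIM37 build, on the coding strand, from the part of the longest coding sequence that lies on the cytoplasmic side of the most hydrophobic stretch. Capitals mark the tyrosine codon.
Pecam1 at chr11:106540891-106540908, minus strand: gtagaaTACacagaagtg
Cd72, first motif, at chr4:43467370-43467387, minus strand: atcacgTATgcagacctg
Cd72, second motif, at chr4:43467178-43467195, minus strand: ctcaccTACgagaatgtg
Lilrb4, first motif, at chr10:51215827-51215844, plus strand: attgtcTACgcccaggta
Lilrb4, second motif, at chr10:51216000-51216017, plus strand: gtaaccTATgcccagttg
Gp49a, first match, at chr10:51205548-51205565, plus strand: attgtgTACgcccaggta
Gp49a, second match, at chr10:51205721-51205738, plus strand: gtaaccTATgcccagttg

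All of these stretches lie in coding exons. The motifs of Cd72, a type II membrane protein, sit at the start of its coding sequence, with tyrosines at positions 7 and 39 of 361 residues, whereas those of Lilrb4, at 300 and 322 of 335, and of Pecam1, at 679 of 732, sit near the end. Lair1 and Cd300a each had 2 such matches and Pirb had 3. Cd200r1 had 0 in its 3 annotated coding transcripts. It is known as a receptor that signals through Dok adaptors instead of an ITIM. Between Lilrb4 and Gp49a the first motif differed by a single base, C6G (the base of Lilrb4, its position counted from 1 at the 5′ end of the 18 bases, and the base of Gp49a), and the second was identical. The motif was present in 4 of 4 annotated coding transcripts of Lilrb4 and in 1 of 3 of Gp49a.

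The deleted gene was examined first. Tgfbr2 (chr9:115993415-116084383) stood at 172, 262, 149.7 and 207 CPM in WT ILC2 (CPM, read counts relative to the library total, scaled by the trimmed mean of M-values, TMM) and at 206, 184 and 96.6 in Tgfbr2-/- ILC2. In ILC2p it stood at 0.714, 233, 107 and 188 CPM for WT and at 87.4, 130.1, 30.9 and 219 in Tgfbr2-/- libraries. The genotypes overlapped in both cell types, and because reads were counted over the whole transcript, a deletion of part of the gene need not lower the count. The genotype is therefore taken from the labels alone.

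The sorted cells carried the genes that define them. All 14 ILC2 marker genes had a median above 1 CPM in both ILC2 groups, led by Gata3, the transcription factor of the lineage, at a median of 3965 CPM for WT and 2965 in Tgfbr2-/- cells, and all 12 ILC2p marker genes did so in both ILC2p groups. Transcripts of genes typical of other cells were also present, and unequally. Whether other cells in the sort or the sorted cells themselves held them was not tested. The summed level of 12 neutrophil genes was 0.721 to 15.2 CPM in WT ILC2, 7.57 to 21.7 in Tgfbr2-/- ILC2, 936 to 1878 in WT ILC2p and 81545 to 97884 in Tgfbr2-/- ILC2p, although the sort left out cells stained for the myeloid antigens CD11b and Gr-1. The most abundant of these genes was Mmp9 in both ILC2 groups, Mpo in WT ILC2p and S100a8 in Tgfbr2-/- ILC2p, where it had a median of 24901 CPM. One WT ILC2 library, experiment 2 replicate 2, stood apart from the other 6 ILC2 libraries, with 9 of 10 endothelial genes above 1 CPM and a summed endothelial level of 346 CPM against 0.608 to 17.8 in the others, and a summed monocyte and macrophage level of 398 CPM against 1.54 to 82.0. Epithelial transcripts were uneven among ILC2, with a summed level of 9 genes of 14.4, 16.0, 241 and 546 CPM for WT and of 43.5, 51.5 and 1446 CPM for Tgfbr2-/- libraries, the last being the library of experiment 2, led by Krt8. ILC2p libraries also missed abundant genes more often. Of the genes at 50 CPM or more in the median of the other libraries of the same cell type, 1.56% to 14.2% fell under 1 CPM in single ILC2p libraries, against 0% to 0.0285% in single ILC2 libraries.

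**Figure D1:**
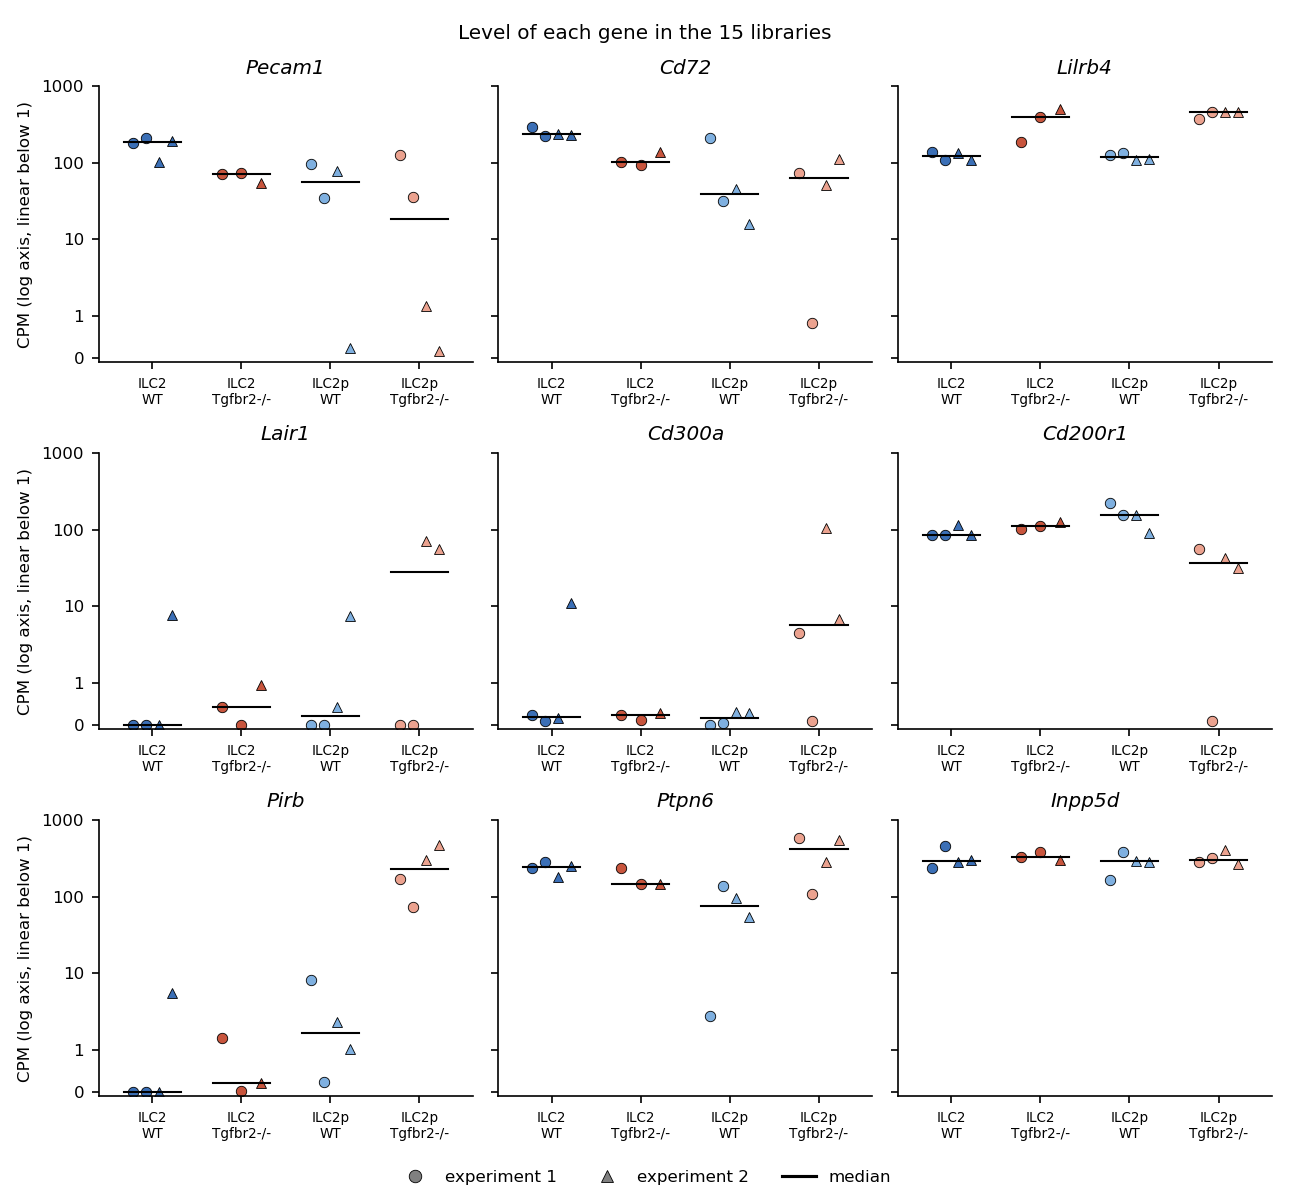
Level of the 9 genes in each of the 15 libraries, in CPM on a log axis that is linear below 1. Circles are libraries of experiment 1, triangles are libraries of experiment 2, and the bar is the median of the group. Pecam1 and Cd72 are lower and Lilrb4 is higher in the 3 Tgfbr2-/- ILC2 libraries than in the 4 WT ILC2 libraries, Pirb is above 70 CPM only in Tgfbr2-/- ILC2p, and Pecam1, Cd72, Lair1 and Cd300a scatter widely in ILC2p.

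Pecam1 (chr11:106515531-106611942) encodes CD31, an adhesion receptor of endothelium, platelets and leukocytes that binds itself on neighbouring cells and recruits SH2-domain phosphatases. In WT ILC2 it stood at 181, 208, 101 and 191 CPM and in Tgfbr2-/- ILC2 at 70.9, 72.6 and 53.5 CPM. All 3 Tgfbr2-/- libraries lay below all 4 WT libraries. The fitted log2 fold change of Tgfbr2-/- over WT was -1.47 (SE 0.252), and the difference of the mean log2(CPM + 1) was -1.42 within experiment 1 and -1.36 within experiment 2. Since PECAM-1 is a classical endothelial antigen, the markers of that cell type stand beside it. Of the 10 endothelial genes, 7 had a median of 0 in either ILC2 group and 9 and 9 had a median at or under 1 CPM in WT and Tgfbr2-/- ILC2. The exceptions were Flt1 in WT, with medians of 4.33 CPM for WT and 0.225 CPM for Tgfbr2-/- ILC2, and Plvap in Tgfbr2-/-, with medians of 0.234 and 3.06 CPM. Their part in the Pecam1 level was not tested. Without the WT library that held endothelial transcripts the log2 fold change of Pecam1 was -1.27.

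In ILC2p, Pecam1 behaved as an on-or-off signal. WT libraries stood at 96.8, 34.0, 77.1 and 0.243 CPM and Tgfbr2-/- libraries at 125, 35.2, 1.32 and 0.155 CPM. The low libraries were WT experiment 2 replicate 2, with 10 reads, and both Tgfbr2-/- libraries of experiment 2, with 31 and 4 reads, so that the genotypes overlapped and the log2 fold change of -2.71 had an SE of 2.65. It was 0.742 without WT experiment 2 replicate 1 and -4.34 without WT experiment 1 replicate 2.

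Cd72 (chr4:43459334-43467500) encodes a C-type lectin-like coreceptor best known from B cells, where it binds SHP-1 and is engaged by Sema4D. Its level was 291, 220, 236 and 232 CPM in WT ILC2 and 102, 94.1 and 136 CPM in Tgfbr2-/- ILC2. The groups did not overlap. The log2 fold change was -1.16 (SE 0.217), with differences of -1.36 within experiment 1 and -0.777 within experiment 2 on the log2(CPM + 1) scale. B cell markers are given beside it. Of 10 such genes, 5 had a median of 0 in either ILC2 group. Cd79b had medians of 67.9 CPM for WT and 61.9 CPM for Tgfbr2-/- ILC2, and Cd79a had medians of 8.66 and 4.93 CPM. The summed level of the 10 genes was 61.0 to 92.1 CPM for WT and 45.8 to 79.7 CPM in Tgfbr2-/- ILC2, most of it Cd79b. The summed level of 6 plasma cell genes was 489, 388, 60.8 and 216 CPM for WT and 72.4, 52.5 and 76.1 CPM for Tgfbr2-/- ILC2, and the groups overlapped. The most abundant was Igj, the joining chain of antibodies, at 388, 370.3, 44.9 and 167 CPM for WT and 34.5, 27.1 and 39.4 CPM for Tgfbr2-/- ILC2, and for this gene the groups did not overlap. No plasma cell gene was called there with edgeR, and DESeq2 called 2 lower. The part of B cell and plasma cell transcripts in the Cd72 level was not tested.

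Among ILC2p, Cd72 stood at 207, 31.5, 45.2 and 15.6 CPM for WT and at 73.0, 0.830, 51.0 and 112 CPM in Tgfbr2-/- libraries. The order of the genotypes turned between experiments, from a difference of -2.82 in experiment 1 to 1.47 in experiment 2, and the log2 fold change was -0.18 (SE 1.501). It turned to 0.868 without WT experiment 1 replicate 1, and was as low as -0.849 with another library left out.

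Lilrb4 (chr10:51200446-51216419) encodes gp49B, an immunoglobulin-like receptor of mast cells, myeloid cells and NK cells that recruits SHP-1. Of the 9 genes it was the 1 whose Tgfbr2-/- libraries all lay above the WT libraries in both cell types. In ILC2 it was at 136, 107, 134 and 107 CPM for WT and at 186, 399 and 493 CPM in Tgfbr2-/- libraries. In ILC2p it was at 125, 132, 107 and 112 CPM for WT and at 376, 452, 459 and 451 CPM in Tgfbr2-/- libraries. The WT groups of the gut and the marrow had nearly the same mean, 121 CPM ± 16.0 (SD, n = 4) and 119 CPM ± 11.3 (SD, n = 4), and the mutant groups had means of 359 CPM ± 158 (SD, n = 3) and 434 CPM ± 39.3 (SD, n = 4). The log2 fold change was 1.55 (SE 0.304) in ILC2 and 1.84 (SE 0.314) in ILC2p, and the effect in ILC2 minus that in ILC2p was -0.29 (SE 0.451).

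Reads of Lilrb4 cannot be fully separated from those of Gp49a (chr10:51200438-51206122), whose annotated span overlaps that of Lilrb4. The span of Lilrb4 begins 8 bases inside that of Gp49a and runs on past its end. Of the 1328 windows of 50 bases along the Lilrb4 transcript, 362 (27.3%) occurred letter for letter in a Gp49a transcript, and the mapping kept reads with several hits. Gp49a itself was at 142, 107, 114 and 75.6 CPM for WT and at 123, 243 and 309 CPM in Tgfbr2-/- ILC2, where the genotypes overlapped, and at 116, 65.1, 42.0 and 43.3 CPM for WT and 319, 284, 233 and 341 CPM in Tgfbr2-/- ILC2p, where they did not. The sum of both genes, in which the division of shared reads matters less, was 231 CPM ± 41.2 (SD, n = 4) in WT ILC2, 584 CPM ± 252 (SD, n = 3) in Tgfbr2-/- ILC2, 186 CPM ± 42.6 (SD, n = 4) in WT ILC2p and 728 CPM ± 46.3 (SD, n = 4) in Tgfbr2-/- ILC2p. Within that sum, Lilrb4 held 49.0% to 58.7% of the reads in WT ILC2 and 60.2% to 62.2% in Tgfbr2-/- ILC2. In ILC2p the order was the other way, with 51.9% to 72.2% (median 69.4%) in WT and 54.1% to 66.4% (median 59.2%) in Tgfbr2-/- libraries, and the groups overlapped.

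**Figure D2:**
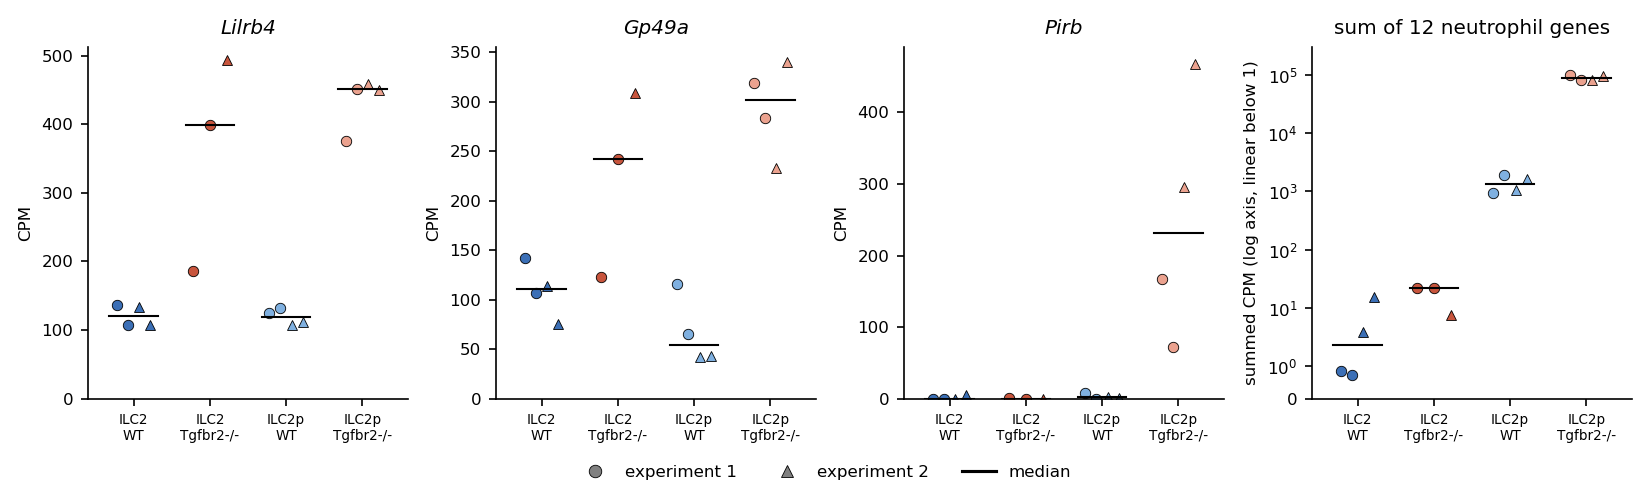
CPM of Lilrb4, Gp49a and Pirb and the summed CPM of 12 neutrophil genes (log axis, linear below 1) in the 4 groups. Circles and triangles are the libraries of experiments 1 and 2 and the bar is the median of the group. Lilrb4 is higher in Tgfbr2-/- libraries of both cell types, whereas Pirb and the neutrophil sum are high in Tgfbr2-/- ILC2p and low in both ILC2 groups.

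The neutrophil transcripts differed between genotypes in one cell type far more than in the other, and this is given beside Lilrb4 as a measured fact. In ILC2p the median neutrophil sum was 1357 CPM for WT and 88340.2 CPM in Tgfbr2-/- libraries. In ILC2 it was 2.36 and 21.7 CPM, 10 of the 12 genes had a median of 0 in WT and 11 of 12 in Tgfbr2-/- libraries, and the remainder was mostly Mmp9. NK cells also carry gp49B. The summed level of 8 genes of NK cells and ILC1 was 429, 265, 252 and 294 CPM for WT ILC2. It was 340, 597 and 991 CPM for Tgfbr2-/- ILC2, so that the groups overlapped. The 3 Tgfbr2-/- libraries stood in the order of their Lilrb4 values, and the WT libraries did not. Gzma, the most abundant of them, reached 772 CPM in the Tgfbr2-/- library of experiment 2, which also held the most Lilrb4 and the most epithelial transcripts and without which the log2 fold change of Lilrb4 in ILC2 was 1.23. EdgeR called none of the NK genes in ILC2 and DESeq2 called 1 higher. In ILC2p the same sum was 0.625, 36.5, 37.9 and 18.9 CPM for WT and 153, 133, 110.3 and 520.4 CPM for Tgfbr2-/- libraries, and there the groups did not overlap. Gzma was at no more than 0.198 CPM in WT and at 25.4 to 41.8 CPM in Tgfbr2-/- ILC2p. It passed the count filter only through the Tgfbr2-/- libraries and could only come out higher, so its direction is not read as a result. Of the 5 NK genes tested in ILC2p it was the 1 called higher with edgeR, beside 2.61% of all genes. No NK gene was called without any 1 of the 8 libraries. In ILC2p the median sum of 12 monocyte and macrophage genes was 292 CPM for WT and 13057 CPM for Tgfbr2-/-, and that of 11 mast cell and basophil genes 186 and 2479 CPM. In ILC2 these medians were 72.0 and 43.4 CPM, and 20.7 and 14.4 CPM. The part of neutrophil, monocyte, mast cell, NK cell or epithelial transcripts in the Lilrb4 level was not tested in either cell type. In bulk RNA a change in the number of cells of a type and a change of RNA per cell cannot be told apart.

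Pirb (chr7:3663011-3671993, annotated there as Lilrb3) encodes a receptor of myeloid and B cells for MHC class I. It was detected at 8.12, 0.233, 2.29 and 1.02 CPM in WT ILC2p and at 167, 72.0, 296 and 468 CPM in Tgfbr2-/- ILC2p. The groups did not overlap, and the log2 fold change was 6.31 (SE 1.33). In the same libraries the median neutrophil sum was 1357 and 88340.2 CPM and the median sum of 12 genes of monocytes and macrophages was 292 and 13057 CPM. Their part in the Pirb level was not tested. In ILC2 it was listed at 0, 0, 0 and 5.52 CPM for WT and at 1.42, 0.0308 and 0.218 CPM in Tgfbr2-/- libraries, and the WT value above 0 belonged to the library that also held endothelial and macrophage transcripts. Of 3775 windows of 50 bases in the Pirb transcript, 24.6% were also found in transcripts of the activating Pira genes, and Pira6 stood at 4.77 to 14.8 CPM in Tgfbr2-/- ILC2p and at no more than 3 reads in WT ILC2p.

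Lair1 (chr7:3958675-4014806), a receptor for collagens, and Cd300a (chr11:114751355-114765968), a receptor for phosphatidylserine and phosphatidylethanolamine, were near the limit of detection in most libraries. Lair1 had 0 reads in 3 of 4 WT ILC2 libraries and 111 reads in experiment 2 replicate 2. It also had 0 reads in both experiment 1 libraries of either ILC2p genotype, and reached 70.5 and 56.3 CPM in the 2 Tgfbr2-/- ILC2p libraries of experiment 2. Cd300a had at most 7 reads in 6 of the 7 ILC2 libraries, at most 12 reads in WT ILC2p, and 45, 1, 2455 and 175 reads in Tgfbr2-/- ILC2p. A count of 0 allows a level of up to 3 reads in a library, for counting error only. Both genes fell below the count filter in the comparisons of genotypes, as did Pirb in ILC2, so that 6 of the 9 genes were fitted in ILC2 and 7 of the 9 in ILC2p.

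Cd200r1 (chr16:44765849-44795091) encodes the receptor for CD200, which limits myeloid and mast cell activation. Its differences between genotypes had opposite signs in the gut and in the marrow. In ILC2 it was at 85.4, 85.9, 115 and 85.8 CPM for WT and at 101, 110.0 and 124 CPM in Tgfbr2-/- libraries, with each Tgfbr2-/- library above the WT libraries of its own experiment, although the groups overlapped when experiments were combined. In ILC2p it was at 224, 156, 155 and 91.2 CPM for WT and at 55.9, 0.104, 41.9 and 31.7 CPM in Tgfbr2-/- libraries, and all 4 of the latter lay below all 4 of the former. The log2 fold change was 0.28 (SE 0.201) in ILC2 and -2.29 (SE 1.27) in ILC2p. The difference between these effects was 2.55 (SE 1.39). With single libraries left out, the ILC2p value ran from -3.36 to -1.77, the latter without Tgfbr2-/- experiment 1 replicate 2. The difference ran from 2.05 to 3.59. In the same ILC2p libraries the median sum of 12 ILC2p markers was 11187 CPM for WT and 5104 CPM for Tgfbr2-/-, and that of the neutrophil genes was 1357 and 88340.2 CPM. Their part in the Cd200r1 level was not tested.

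**Figure D3:**
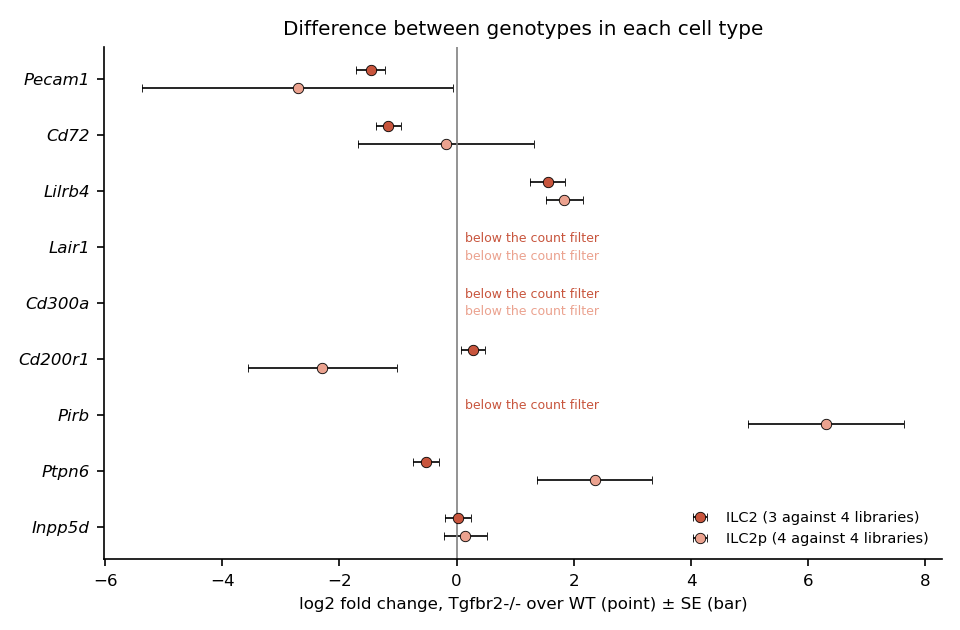
Fitted log2 fold change of Tgfbr2-/- over WT (point) with its standard error (bar) for each gene in ILC2, with 3 against 4 libraries, and in ILC2p, with 4 against 4. Genes below the count filter have no point. Lilrb4 is the 1 gene with a point above 1 in both cell types, Cd200r1 and Ptpn6 lie on opposite sides of 0, and the bars are wide for Pecam1 and Cd72 in ILC2p.

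Of the phosphatases, Ptpn6 (chr6:124670725-124688732), encoding SHP-1, was at 236, 284, 182 and 247 CPM in WT ILC2 and at 234, 145 and 145 CPM in Tgfbr2-/- ILC2. In both experiments the Tgfbr2-/- values lay below the WT values of the same experiment, in experiment 1 by as little as 234 against 236, and the log2 fold change was -0.52 (SE 0.2203). In ILC2p it was at 2.77, 135, 94.6 and 54.2 CPM for WT and at 585, 108, 283 and 541 CPM in Tgfbr2-/- libraries, with a log2 fold change of 2.36 (SE 0.984) that ran from 1.76, without Tgfbr2-/- experiment 1 replicate 1, to 3.67, without WT experiment 1 replicate 2. SHP-1 is abundant in myeloid cells, and the neutrophil sums given above stand beside this value, whose relation to them was not tested. The WT library at 2.77 CPM, experiment 1 replicate 1, was also the one with Tgfbr2 at 0.714 CPM and with the largest share of abundant genes under 1 CPM, 14.2%.

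Inpp5d (chr1:89516887-89617082), encoding SHIP-1, differed little between the groups. It ranged from 233 to 459 CPM in WT ILC2, from 304 to 383 in Tgfbr2-/- ILC2, from 165 to 382 in WT ILC2p and from 266 to 405 in Tgfbr2-/- ILC2p. The log2 fold change between genotypes was 0.02 (SE 0.224) in ILC2 and 0.15 (SE 0.365) in ILC2p, and that of ILC2 over ILC2p was 0.12 (SE 0.232). Each of these lay within its standard error.

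Levels per length of transcript (RPKM) gave the order of the genes within a group. In WT ILC2 the order by median was Cd72 at 246 RPKM, Ptpn6 at 122, Lilrb4 at 87.2, Inpp5d at 69.0, Pecam1 at 60.8 and Cd200r1 at 50.3, followed by Cd300a, Lair1 and Pirb at medians under 1 RPKM. Cd72, the lowest of whose 4 libraries was at 204 RPKM, was clear of Ptpn6, the highest of which was at 138, while from Ptpn6 to Cd200r1 each neighbouring pair overlapped. In Tgfbr2-/- ILC2 Lilrb4 took the first place at 278 RPKM, ahead of Cd72 at 104, with ranges that still overlapped, and Pecam1, at 19.1 to 24.5 RPKM, fell clear below Cd200r1, whose lowest library was at 60.0. In WT ILC2p Cd200r1 came first at 95.0 RPKM, followed by Lilrb4 at 86.7, and in Tgfbr2-/- ILC2p Lilrb4 came first at 271 RPKM, followed by Ptpn6 at 169 and Pirb at 84.3. In the ILC2p groups every pair of neighbours in this order overlapped.

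Between cell types, with both genotypes weighted equally, Pecam1 and Cd72 were higher in ILC2 than in ILC2p by a log2 fold change of 1.70 (SE 0.964) and 1.33 (SE 0.721), Lilrb4 differed by -0.11 (SE 0.226), and Pirb was lower in ILC2 by -4.85 (SE 1.49). The first 2 values carried the wide scatter of the ILC2p libraries, and Pecam1 moved to 4.09 without WT ILC2p experiment 2 replicate 1. Cd72 ran from 1.08 to 2.04 with single libraries left out. Pirb moved to -9.35 without WT ILC2 experiment 2 replicate 2, the 1 WT ILC2 library with reads of this gene.

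Read against the background of all genes, the counts were as follows. With edgeR's quasi-likelihood test, an adjusted p under 0.1 and a fold change over 1.5, 0 of 11981 genes passed in ILC2 (0%), and neither did any of the 6 fitted genes of the 9, while 557 genes had an unadjusted p under 0.05. DESeq2, run as an alternative, called 338 genes in ILC2, among them Pecam1, Cd72 and Lilrb4, and limma called 0. In ILC2p 321 of 9242 genes passed (3.47%; higher in Tgfbr2-/-, 2.61%; lower, 0.866%), and of the 7 fitted genes Lilrb4 and Pirb did. Of these calls 75.1% were higher in Tgfbr2-/- as fitted, against 66.2% with library size only and 63.0% with upper-quartile scaling. The share was 55.0% with DESeq2, which changes the test as well as the scaling, and 88.6% with a replicate block. DESeq2 and the fit without a count filter put Ptpn6 past the thresholds as well. Pirb was no longer past them without Tgfbr2-/- ILC2p experiment 1 replicate 1, without either WT library of experiment 2, or without either Tgfbr2-/- library of experiment 2. By the plain criterion of groups that do not overlap, 3.04% of genes in ILC2 had every Tgfbr2-/- library above every WT library, as Lilrb4 did, and 2.35% had every one below, as Pecam1 and Cd72 did. The corresponding shares in ILC2p were 6.29% above, where Lilrb4 and Pirb belonged, and 3.83% below, where Cd200r1 belonged. Between cell types 2748 of 12806 genes passed (21.5%; higher in ILC2, 16.3%; lower, 5.19%), Pirb among them, and for the difference between the genotype effects 127 of 12806 (0.992%; 0.469% with a positive and 0.523% with a negative difference), with none of the 9 among them. Pirb was past the thresholds between cell types in 23 of 24 settings, all but the fit without the Tgfbr2-/- ILC2 library of experiment 2. Both limma fits also put Pecam1 and Cd72 past the thresholds there. So did the fit without WT ILC2p experiment 2 replicate 1 for Pecam1, and the fit without WT ILC2p experiment 1 replicate 1 for Cd72. For the difference between the effects, DESeq2 put Cd300a past them, limma on log2(RPKM + 1) Pirb, and the fit without a count filter Ptpn6. With upper-quartile scaling, 71.9% of the calls of the last comparison were positive, against 47.2% as fitted. The median log2 fold change of the fitted genes of the 9 was -0.25 in ILC2, beside -0.01 for all genes, and 0.15 in ILC2p, beside -0.10. As the 9 genes were chosen with these values known, the comparison with the background supports nothing further.

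The other genes of the system were listed from general knowledge of ITIM signalling, with earlier results of these libraries known. Of 29 other receptors listed as carrying inhibitory motifs and found in the tables, 15 were tested between genotypes in ILC2p. With edgeR 8 were called higher in Tgfbr2-/- ILC2p, beside 2.61% of all genes. A gene under the count filter in WT ILC2p passed it only through the Tgfbr2-/- libraries and could then only come out higher. This applies to most of the 8, Cd33, Siglece, Fcgr2b, Clec4a2 and Cd300lf, and to such genes in the lists that follow, so the direction of such counts is not read as a result and these genes are given by their levels. Cd33, a sialic acid-binding lectin of myeloid cells, was at 0.407 to 1.16 CPM for WT and 91.3 to 271 CPM in Tgfbr2-/- ILC2p. Siglece, another lectin of this family, had medians of 0.475 and 159.5 CPM, and Fcgr2b, the inhibitory Fc receptor for IgG, of 0.485 and 98.7 CPM. Clec4a2, Pilra and Cd300lf had medians of 0.424, 1.17 and 0.747 CPM for WT and of 140.0, 193 and 339.8 CPM for Tgfbr2-/- ILC2p. Ceacam1 and Clec12a were the other 2. Leaving out single libraries left 6 to 9 receptors called higher. These are receptors of neutrophils and other myeloid cells, and they stood high in the same 4 libraries as S100a8, except that Cd300lf was at 1.45 CPM in 1 of them. How much of their level belongs to those cells was not tested.

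In ILC2, where 15 of the same receptors were tested, 0 passed between genotypes with edgeR, and DESeq2 called 1 higher and 0 lower. Klrg1, which the sort itself selected in ILC2, was at 836 to 978 CPM for WT and 679 to 774 CPM in Tgfbr2-/- libraries, and Pdcd1, encoding PD-1, at 216 to 341 and 168 to 393 CPM. Over the 11981 genes fitted there, 557 had an unadjusted p under 0.05.

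Between cell types 23 of these receptors were tested, of which 9 were called higher in ILC2 and 10 in ILC2p, beside 16.3% and 5.19% of all genes. A gene near 0 in one cell type passed the count filter only through the other and could only come out higher there. This holds for Btla, Cd22 and Clec12a, among others, and for such genes in the other lists, so the counts between cell types are a description. Klrg1, counted among the 9, was higher in ILC2 by a log2 fold change of 2.91 (SE 0.240). Its direction was fixed by the sort, which selected KLRG1 in ILC2 but not in ILC2p, so no p-value is given. Pdcd1 was higher in ILC2 by 3.65 (SE 1.12, adjusted p = 0.0412, edgeR). Slamf6 was at 4.12 to 33.3 CPM over the ILC2 libraries, had a median of 0 and a highest value of 6.87 CPM in WT ILC2p, and was at 0 in every Tgfbr2-/- ILC2p library, and Btla and Tigit, receptors of lymphocytes, were likewise called higher in ILC2 at low levels, with highest values of 8.47 and 22.0 CPM. The 10 on the other side were Clec12a, Sirpa, Siglecg, Cd300lf, Clec4a2, Cd33, Lilra6, Siglece, Pilra and Fcgr2b. Of these, Lilra6 belongs to the activating branch of its family, which lacks the motif, although it stands in the list, and 9 are inhibitory receptors. Clec12a was listed at 0 in all 7 ILC2 libraries, at 0.872 to 24.3 CPM in WT ILC2p and at 253 to 422 CPM in Tgfbr2-/- ILC2p, and the median of Sirpa was 0.917 CPM for WT and 184 CPM in Tgfbr2-/- ILC2p. Leaving out single libraries left 8 to 10 higher in ILC2 and at least 8 higher in ILC2p.

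**Figure D4:**
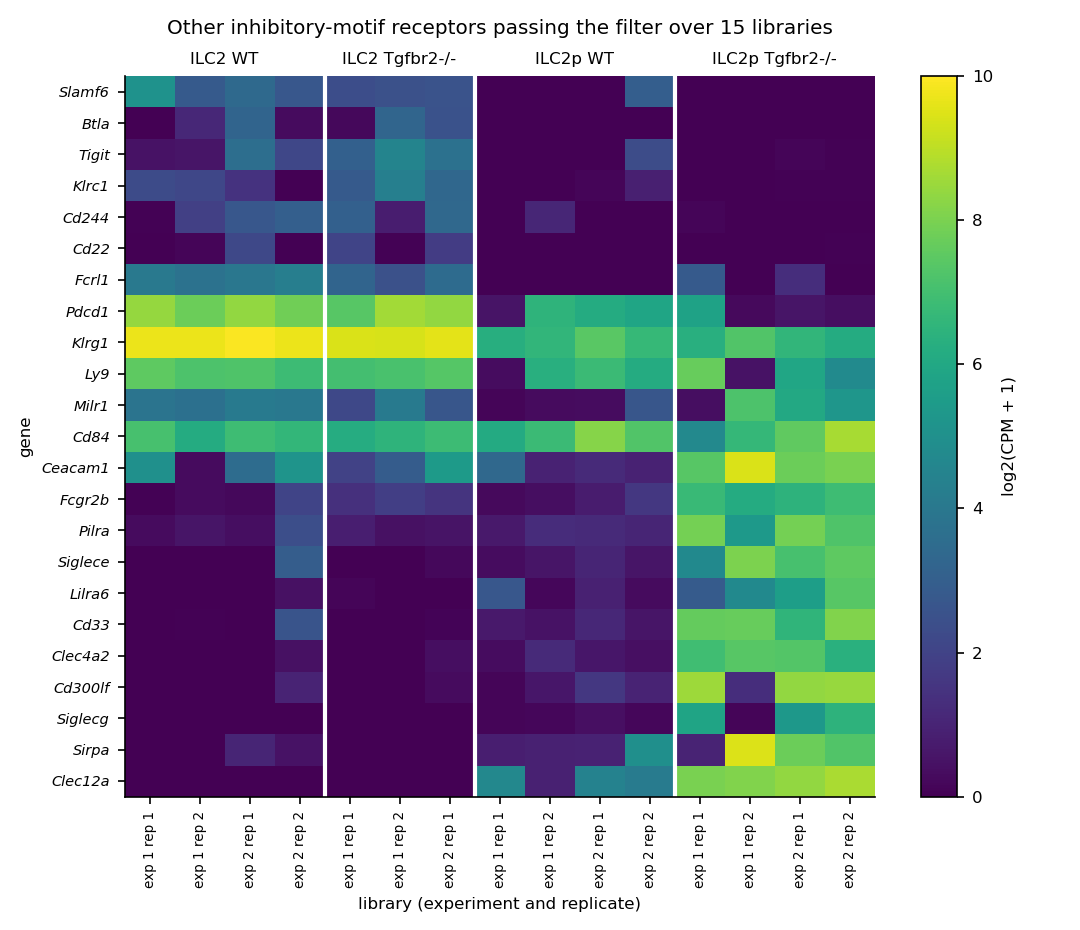
log2(CPM + 1) of the 23 other receptors listed as carrying inhibitory motifs (Lilra6, an activating relative, among them) that passed the count filter, as a colour in each of the 15 libraries (columns, by experiment and replicate within the 4 groups), ordered by their log2 fold change of ILC2 over ILC2p. Klrg1 and Pdcd1 are bright in the ILC2 libraries, and most receptors from Fcgr2b to Clec12a are bright in Tgfbr2-/- ILC2p.

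Among Src family kinases, which phosphorylate the motifs, Fgr rose in Tgfbr2-/- ILC2p. It was at 0.582 to 2.23 CPM for WT and 106 to 643 CPM in Tgfbr2-/- ILC2p (log2 fold change 7.92, SE 0.675, adjusted p = 0.000270, edgeR). Fgr is a kinase of myeloid cells and had a median of 0 in both ILC2 groups. Lck, the kinase of T cells and innate lymphocytes, stood at 109 to 135 CPM in WT ILC2 and 122 to 173 in Tgfbr2-/- ILC2. In ILC2p it ranged from 35.4 to 196 CPM for WT and from 0.415 to 87.1 in Tgfbr2-/- libraries and did not pass. Src and Yes1 were called higher in ILC2 than in ILC2p. Src had medians of 20.2 CPM in WT ILC2 and 9.12 CPM in WT ILC2p, and Yes1 of 3.26 and 0.0728 CPM. Without the Tgfbr2-/- ILC2 library of experiment 2, or without Tgfbr2-/- ILC2p experiment 1 replicate 1, 1 of these 2 calls was left.

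On the activating side, 13 of 14 genes for ITAM adaptors, Syk kinases and their substrates were tested in ILC2p. Of these, 2 rose and 1 fell, beside 2.61% and 0.866% of all genes. Tyrobp, encoding DAP12, rose from a median of 5.93 to 761 CPM (adjusted p = 0.000232, edgeR), and Fcer1g, encoding FcRγ, from 25.7 to 669 CPM (log2 fold change 4.18, SE 0.607, adjusted p = 0.00677). Lat, the linker of T cell and ILC activation, fell from a median of 314 to 112 CPM (log2 fold change -1.59, SE 0.369, adjusted p = 0.0716), and that call was kept in 1 of the 8 fits with a library left out, the one without Tgfbr2-/- ILC2p experiment 1 replicate 2. In the same libraries the median neutrophil sum was 1357 CPM for WT and 88340.2 CPM for Tgfbr2-/- ILC2p, and the median sum of 12 ILC2p markers was 11187 and 5104 CPM. Their part in these changes was not tested. The Fcer1g effect differed between the cell types, by -3.70 (SE 0.760, adjusted p = 0.0507), a call that was lost without any 1 of 5 ILC2 libraries, namely WT experiment 1 replicate 1, WT experiment 2 replicate 2 and the 3 Tgfbr2-/- libraries. Lcp2, encoding the adaptor SLP-76, was the most abundant of these genes at a median of 438 CPM in WT ILC2. Between cell types 2 of the 14 genes were higher in ILC2 and 2 were lower, beside 16.3% and 5.19% of all genes. The first count lies near the share of all genes and is not read as a result about the list. Zap70 was higher (log2 fold change 3.89, SE 0.859, adjusted p = 0.0105), with 393 to 561 CPM over the ILC2 libraries, as was Lat (0.63, adjusted p = 0.0450). Tyrobp (-3.06, adjusted p = 0.0157) and Fcer1g (-1.33, adjusted p = 0.0292) were lower.

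Of 16 other phosphatases and adaptors, 14 were tested in ILC2p and 1 rose, beside 2.61% of all genes. This was Dok3, an adaptor of myeloid and B cell receptors, which went from a median of 2.00 to 594 CPM (adjusted p = 0.00945, edgeR). Dok2, an adaptor to which CD200R binds, was at 542 to 789 CPM for WT and 73.5 to 552 CPM in Tgfbr2-/- ILC2p and did not pass. Ptprc, encoding CD45, was at 446 to 760 CPM in WT ILC2 and 248 to 637 in WT ILC2p. Between cell types Cblb, Sh2d1b1 and Ubash3a were higher in ILC2, and Dok3, Pag1 and Sh2d1a in ILC2p. These counts stand beside 16.3% and 5.19% of all genes, and they were unsteady. With single libraries left out, the number higher in ILC2 ran from 0, without the Tgfbr2-/- ILC2 library of experiment 2, to 4, and it was 1 in each of 6 other such fits.

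Genes for ligands of the receptors were also measured in the sorted cells. Of 8 tested in ILC2p, 2 were called higher, beside 2.61% of all genes. Fn1, encoding fibronectin, had medians of 0.810 CPM for WT and 138 CPM for Tgfbr2-/- ILC2p and passed the count filter only through the latter, and Apoe rose from a median of 26.5 to 325 CPM (log2 fold change 3.25, SE 0.705, adjusted p = 0.0534, edgeR). Of these 2 calls 1 was left in 6 of the 8 fits with a library left out, all but those without WT ILC2p experiment 1 replicate 1 or without Tgfbr2-/- ILC2p experiment 1 replicate 1. H2-K1 and B2m, which form a class I ligand of PIR-B, were the most abundant, at medians of 7716 and 6160.4 CPM in WT ILC2. Cd38, a counter-receptor of CD31, was higher in ILC2 (0.608 to 36.8 CPM in WT) than in ILC2p, where its median was 0.0283 CPM in WT. C1qa, Col1a1, Col1a2, Col3a1 and Itgav were the other 5 higher in ILC2, beside 16.3% of all genes. The highest C1qa value, 94.3 CPM, was in WT ILC2 experiment 2 replicate 2, and without that library the number of ligand genes higher in ILC2 went from 6 to 4.

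Among the near relatives of the receptors, 6 of the 15 in the tables were tested in ILC2p and 4 were called higher, beside 2.61% of all genes. These were Gp49a (log2 fold change 2.21, SE 0.457, adjusted p = 0.0447, edgeR), Cd300lb, Cd300ld and Pira6. The last 3 were under the count filter in WT ILC2p and passed it only through the Tgfbr2-/- libraries. Cd300lb, an activating relative of Cd300a, was at 0.407 to 1.30 CPM for WT and 155 to 317 CPM in Tgfbr2-/- ILC2p, and had 0 reads in all ILC2 libraries. With single libraries left out 1 to 3 of the relatives were called, the 1 without Tgfbr2-/- ILC2p experiment 2 replicate 2. In ILC2, 0 of the 4 relatives tested passed.

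Finally, the genes whose levels most resembled those of Pecam1, Cd72 and Lilrb4 were listed by Pearson's r of log2(CPM + 1) over the libraries of one cell type, which share genotype and experiment, so that r is a description only. Over the 7 ILC2 libraries, Pecam1 was closest to Ece1 (r = 0.975), Asb2 (0.973) and Csf2ra (0.953), Cd72 to Acad9 (0.985), Pmf1 (0.970) and Klf6 (0.961), and Lilrb4 to Exoc3l (0.964), Acer2 (0.963) and Zfp300 (0.962). Exoc3l and Zfp300 were nearly silent, with at most 1.09 and 3.79 CPM. Over the 8 ILC2p libraries, Lilrb4 was closest to C3 (r = 0.992), Cxcr2 (0.992) and Spi1 (0.991), which encode complement C3, a chemokine receptor of neutrophils and the myeloid transcription factor PU.1. Spi1 ran from 1.33 to 814 CPM over these libraries. Pecam1 was closest to Tnks (0.962), Tmem241 (0.957) and Ctage5 (0.927) in ILC2p, and Cd72 to Nelfb (0.977), Polr3gl (0.973) and Lap3 (0.962).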

How the data were processed

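Bulk RNA-seq was analysed from 15 libraries, 1 table per library. According to the methods and the file headers, the authors mapped reads to mm9 with TopHat (up to 15 hits kept; Bowtie2 is listed in the submitters' processing notes) and counted them over whole RefSeq transcripts with the rpkmforgenes program and its option rmnameoverlap. The deposited values used here are raw read counts per gene and RPKM, which the authors scaled by transcript length and by mapped reads. Library totals ran from 10957021 to 35961215 counts.

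The deposited counts were fitted with edgeR 4.0.16 (R 4.3.3): filterByExpr, TMM scaling, quasi-likelihood test with the experiment, nested in cell type, as covariate and Benjamini-Hochberg adjustment over all genes tested, separately for ILC2, ILC2p and all 15 libraries. Genes were called at an adjusted p under 0.1 and a fold change over 1.5. CPM are TMM-scaled over the 15 libraries. As alternatives, limma 3.58.1 on log2(RPKM + 1) or log2(RPKM + 0.1) and DESeq2 1.42.0 were run, besides other scalings, no filter, no covariate, a replicate block and the omission of each library. The scripts were tested on simulated data. Replicate numbers are those of the sample titles, and the only Tgfbr2-/- ILC2 library of experiment 2 was numbered 1.

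The 9 genes and the gene lists were chosen with earlier results of these data known, the lists from general knowledge. Genes were named by rule: the 9 genes, up to 6 called genes per list and fit by size, the 2 most abundant per list, the 3 closest by correlation, and Tgfbr2; called genes beyond the first 6 of a list were named after their values were seen, to complete a count. Motifs, windows and positions were computed from GENCODE vM1 on NCBIM37 (Biopython). Protein sequences were not used here, and not every gene of the lists is reported here.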

Additional observations from a re-analysis of the deposited data

Results flagged for a closer look

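Single libraries stood apart from the other 3 of their group by Dixon's ratio in 8 of the 27 gene and group combinations examined, a ratio that chance alone exceeds in about 1 of 20 for continuous values. That rate cannot be applied to Lair1 and Pirb in WT ILC2, where 3 libraries were at 0 and the ratio is 1 whatever the value of the other library. Of the 8, 3 belonged to the same WT ILC2 library, experiment 2 replicate 2, which held Lair1 at 7.75 CPM, Cd300a at 10.96 CPM and Pirb at 5.52 CPM while the other WT ILC2 libraries were at or near 0. The summed endothelial and macrophage levels of this library were also the highest of the ILC2 libraries. The other 5 were Cd200r1 at 115 CPM in WT ILC2 experiment 2 replicate 1, Cd72 at 207 CPM in WT ILC2p experiment 1 replicate 1, Lair1 at 7.35 CPM in WT ILC2p experiment 2 replicate 2, Lilrb4 at 376 CPM, the lowest of its group, in Tgfbr2-/- ILC2p experiment 1 replicate 1, and Cd300a at 105 CPM in Tgfbr2-/- ILC2p experiment 2 replicate 1.

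Cd200r1 was singled out because every Tgfbr2-/- ILC2 library lay above, and every Tgfbr2-/- ILC2p library below, the WT libraries of its own experiment. The fitted effect in ILC2 minus that in ILC2p was 2.55, and no p-value is attached since the gene was chosen with its values known. The ILC2p marker sum was lower and the neutrophil sum higher in the same Tgfbr2-/- ILC2p libraries, and their part in the level of Cd200r1 was not tested.

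Of the listed genes, 9 had genotype effects that differed between ILC2 and ILC2p with edgeR, beside 0.992% of all genes. They were 2 of 23 other receptors tested, 1 of 14 ITAM adaptors and kinases, and 1 positive and 1 negative of 14 ligand genes. The rest were 1 of 6 NK cell genes, 2 of 12 neutrophil genes and 1 of 6 basophil and mast cell genes. The log2 effect in ILC2 minus that in ILC2p was -12.37 for Cd33, -7.59 for Pilra, -3.70 for Fcer1g, -10.13 for Fn1, -7.69 for Gzma, -7.85 for Hdc, -14.13 for Ltf and -10.84 for Mmp8, all of which stood higher in Tgfbr2-/- ILC2p than in WT ILC2p. For H2-K1 it was 0.68. In the ligand list, to which Fn1 and H2-K1 belong, 0 genes were called lower without any 1 of 5 ILC2 libraries, namely WT experiment 1 replicate 2, WT experiment 2 replicate 2 and the 3 Tgfbr2-/- libraries. The positive call of that list was kept in 5 of the 15 fits with a library left out. With single libraries left out, at least 1 gene was called lower in the NK cell list and in the basophil and mast cell list each time, whereas 0 of the neutrophil genes were called without the Tgfbr2-/- ILC2 library of experiment 2 and 0 of the other receptors without any 1 of the 3 Tgfbr2-/- ILC2 libraries. Ltf and Mmp8 are neutrophil genes and Hdc is a gene of basophils, mast cells and neutrophils. Fitted values of this size rest on groups near 0 and depend on the prior count. A gene near 0 in ILC2 and in WT ILC2p entered the fit through Tgfbr2-/- ILC2p, so the direction of its difference is not read as a result. Cd33 was such a gene, at or near 0 in every ILC2 library except WT experiment 2 replicate 2, and its value leans on that library. Ltf was at 3.72 CPM in WT ILC2 experiment 2 replicate 1.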

How the results depend on the processing

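The number of genes called between genotypes in ILC2 was 0 under every setting tried except DESeq2 (338) and no count filter (3). In ILC2p it was 321, against 1229 with DESeq2, 179 to 319 with single libraries left out and 175 with a replicate block. For the difference between the genotype effects it was 127, against 1480 with DESeq2, 382 and 360 with limma on log2(RPKM + 1) and log2(RPKM + 0.1), 196 with library size only, 203 with upper-quartile scaling, 259 without a filter, 70 with the replicate block and 14 to 407 with single libraries left out, the lowest without the Tgfbr2-/- ILC2 library of experiment 2. The count between cell types stayed within 1985 and 3322. Same-numbered libraries did not deviate together (r of -0.045, -0.036 and -0.007 across genes), so the block joins libraries that share only a number, and it put Pecam1 as well as Pirb past the thresholds between cell types, where both limma fits put Pecam1, Cd72 and Pirb past them. The upper quartile moved the median log2 fold change of all genes in ILC2p to -0.40, from -0.10. In ILC2 the log2 fold changes of Pecam1 (-1.57 to -1.27), Cd72 (-1.42 to -0.97) and Lilrb4 (1.23 to 1.86) kept their sign in all 15 alternatives, and in ILC2p so did Lilrb4 (1.52 to 1.96) and Pirb (5.24 to 8.17) in all 16. As the 9 genes were selected on these counts, a kept sign is no support. No called value of the 9 genes changed sign, and of their values under the alternatives 579 stayed within the standard error and 37 did not.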

Other observations

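Genes typical of other cell types besides neutrophils were also high in Tgfbr2-/- ILC2p, and which cells held these transcripts was not tested. Of 6 tested genes of basophils and mast cells, 5 rose between genotypes (Fcer1a, Gata2, Hdc, Mcpt8 and Prss34), beside 2.61% of all genes. The summed level of the list went from a median of 186 CPM in WT to 2479 CPM in Tgfbr2-/- ILC2p. The 2 tested eosinophil genes, Ear1 and Ear2, rose, as did 3 of the 8 tested monocyte genes (Cd14, F13a1 and Lyz2), beside the same share of all genes. Lyz2 was at a median of 11980.1 CPM in Tgfbr2-/- ILC2p. Over the same libraries 4 of the 12 tested ILC2p markers fell (Gata3, Id2, Il1rl1 and Itgb7), beside 0.866% of all genes, and the other 8 did not pass. The sum of the 12 ILC2p markers had a median of 11187 CPM in WT and 5104 CPM in Tgfbr2-/- ILC2p. With single libraries left out, 4 to 5 of the basophil and mast cell genes, 0 to 1 of the eosinophil genes, 3 to 4 of the monocyte genes and 1 to 3 of the ILC2p markers were called. Over all settings the number of ILC2p markers called lower ran from 1 to 8. Genes of the other cell types that were under the count filter in WT ILC2p passed it only through the Tgfbr2-/- libraries and could not have fallen. In ILC2, 0 of the eosinophil genes and 1 of the basophil and mast cell genes were tested, so those lists give no comparison there. Of the 8 monocyte, 14 ILC2 and 12 ILC2p genes tested in ILC2, none passed with edgeR, and DESeq2 called 2 ILC2 markers and 1 ILC2p marker lower. The sum of 14 ILC2 markers was 10518 to 11537 CPM in WT and 8483 to 10889.8 CPM in Tgfbr2-/- libraries.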
